A study of Bos taurus with 13 samples.

Results

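Granule antimicrobial proteins are among the main weapons with which the neutrophil, the most abundant phagocyte of blood, kills microbes. Cathelicidins, of which cattle have a whole family, are stored as inactive precursors and release a membrane-disrupting peptide when elastase cuts them. *BPI*, the bactericidal/permeability-increasing protein, binds the lipopolysaccharide of Gram-negative bacteria. *MPO*, myeloperoxidase, makes hypochlorous acid from hydrogen peroxide, *PGLYRP1* binds the peptidoglycan of bacterial walls, and lactoferrin (*LTF*) withholds iron from bacteria. As background, granule proteins are made mainly while neutrophils mature in the bone marrow, so that circulating neutrophils carry much of the protein and little of the message.

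The genes described here were taken by name, as every entry beginning CATHL and the entries *LTF*, *BPI*, *PGLYRP1*, *MPO* and *CAMP*. Of 16095 named genes in the count tables, 5 were found: *BPI*, *CATHL4*, *MPO* and *PGLYRP1* by their own names, and lactoferrin as *LF*, which RefSeq lists as a synonym of *LTF*. *LTF* under its own name, *CAMP* and the other *CATHL* genes were not analysed here. The rule used no measured value.

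RNA was sequenced from the whole blood of lactating Italian Red Pied cows (called Italian Simmental in the study's methods; their ages are not in the labels), clinically healthy and kept on a single farm. The cows had been ranked by the cortisol concentration of their milk, and the comparison asks which genes differ between animals of high and low rank. Count tables of 13 cows were used, 7 of the high group (high 1 to high 7) and 6 of the low group (low 8 to low 13), each cow giving 1 library. Blood was collected into tubes that stabilise RNA, without removal of globin messages. The labels give no treatment, and no difference between the groups but this rank. In whole blood, fewer cells of a type and less RNA per cell cannot be told apart.

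The libraries held 11045599 to 28124575 counts over named genes, and no pair of tables was identical. Messages of leucocytes were abundant in both groups: *CSF3R*, the receptor of granulocyte colony-stimulating factor, averaged 3023 CPM (counts scaled to a common library total, after TMM normalization) in the high group and 4122 CPM in the low group, *CD3E* of T cells 1089 and 1175, and *CD79A* of B cells 747 and 721. The haemoglobin genes *HBB*, *HBG*, *HBM* and *HBQ1* together took 0.028 to 0.815% of the counts over named genes in the high group. In the low group they took 0.011 to 0.055%. No other globin gene was in this sum. The cow high 4 had the highest value of the 13 cows for 27.4% of all genes tested, against 3.88% for low 9.

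The single named cathelicidin gave no count. *CATHL4*, placed on an unplaced scaffold of UMD3.1 (bases 9049 to 10420, plus strand) with 4 exons of 210, 108, 72 and 160 bases, was at 0 in all 13 cows. A count of 0 allows up to 3 counts, which was 0.110 to 0.270 CPM depending on the library. This takes counts as independent, and the limit is higher if both mates of a read pair were counted. Such limits cover counting error only.

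In RefSeq the cathelicidin genes of cattle, *CATHL4* among them, lie together on chromosome 22. The RefSeq annotation (ARS-UCD2.0, used for gene order only) has 7 cathelicidin genes there, *CAMP*, *CATHL4*, *CATHL1*, *CATHL3*, *CATHL2*, *CATHL6* and *CATHL5*, between *NME6* and *CDC25A*. Between the same neighbours in the count tables there were 0 named genes, but 34 of the 28792 exons that the tables pool into 1 entry without a name lay there, from base 52143306 to base 52221924 of UMD3.1. Joined where they lay within 2000 bases of each other, these exons formed 9 clusters, 7 of them with 4 exons and 2 with 3. An exon of 108 bases, the length of the second exon of *CATHL4*, was in 8 clusters. An exon of 72 bases, the length of its exon 3, was likewise in 8, and 7 clusters held both. Each cluster summed to 360 to 823 exon bases. The counts of these clusters cannot be separated from the rest of the unnamed entry, which took 13.9 to 16.7% of all counts. The 0 of the scaffold entry *CATHL4* therefore says nothing about the cathelicidins of chromosome 22. Whether any cluster is a further copy of *CATHL4* that shares its reads was not tested, so the 0 does not show that *CATHL4* was silent.

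*BPI* (chromosome 13, 67835164 to 67861379, plus strand, 14 exons) had the highest median of the 5 per unit of length. In the high group it ran from 7.81 CPM in high 3 to 80.5 CPM in high 5, with a median of 14.5. In the low group it ran from 5.41 CPM in low 9 to 42.2 CPM in low 12, with a median of 31.1. Only high 1 (36.2 CPM) and high 5 of the 7 high cows exceeded the low median, yet the lowest cow of all was a low one, and the groups overlapped from 7.81 to 42.2 CPM. The means were 26.1 ± 25.7 CPM (SD, n = 7) and 28.1 ± 13.0 CPM (SD, n = 6). Without high 5 the high mean was 17.0 ± 10.1 CPM (SD, n = 6).

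*MPO* (chromosome 19, 9473004 to 9484176, minus strand, 14 exons) ran from 4.54 CPM in high 5 to 38.9 CPM in high 3 among high cows, with a median of 7.33. Among low cows it ran from 4.06 CPM in low 12 to 13.2 CPM in low 8, with a median of 5.96. High 3 stood alone, since the next cow, high 2, was at 13.4 CPM, and the other high cows lay within the range of the low group. Group means were 12.1 ± 12.2 CPM (SD, n = 7) for high and 7.44 ± 3.78 CPM (SD, n = 6) for low cows. Without high 3 the high mean was 7.64 ± 3.20 CPM (SD, n = 6).

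*PGLYRP1* (chromosome 18, 53946097 to 53948160, minus strand, 3 exons) was between 1.30 CPM in high 3 and 6.14 CPM in high 2 among high cows, with a median of 2.36. Among low cows it was between 0.992 CPM in low 12 and 13.1 CPM in low 9, with a median of 1.85. Low 9 held the highest value of all cows, while 6 of the 7 high cows exceeded the low median. The means were 2.82 ± 1.57 CPM (SD, n = 7) and 3.60 ± 4.67 CPM (SD, n = 6), and without low 9 the low mean was 1.71 ± 0.62 CPM (SD, n = 5).

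Lactoferrin (*LF*; chromosome 22, 53521906 to 53556089, plus strand, 17 exons) lies between *RTP3* and *CCRL2* in the tables, as *LTF* does in RefSeq. It was rare, with 8 to 166 counts per cow and a median of 15, so its values carry the most counting error of the 4 measured genes. High cows ran from 0.46 CPM in high 2 to 2.81 CPM in high 4, with a median of 1.64. Low cows ran from 0.55 CPM in low 11 to 12.5 CPM in low 9, with a median of 0.78. Low 9 alone held 37.9% of all *LF* counts, and the other low cows did not exceed 1.07 CPM, a value that 4 of the 7 high cows passed. The means were 1.55 ± 0.893 CPM (SD, n = 7) and 2.72 ± 4.78 CPM (SD, n = 6), and without low 9 the low mean was 0.76 ± 0.20 CPM (SD, n = 5).

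**Figure D1:**
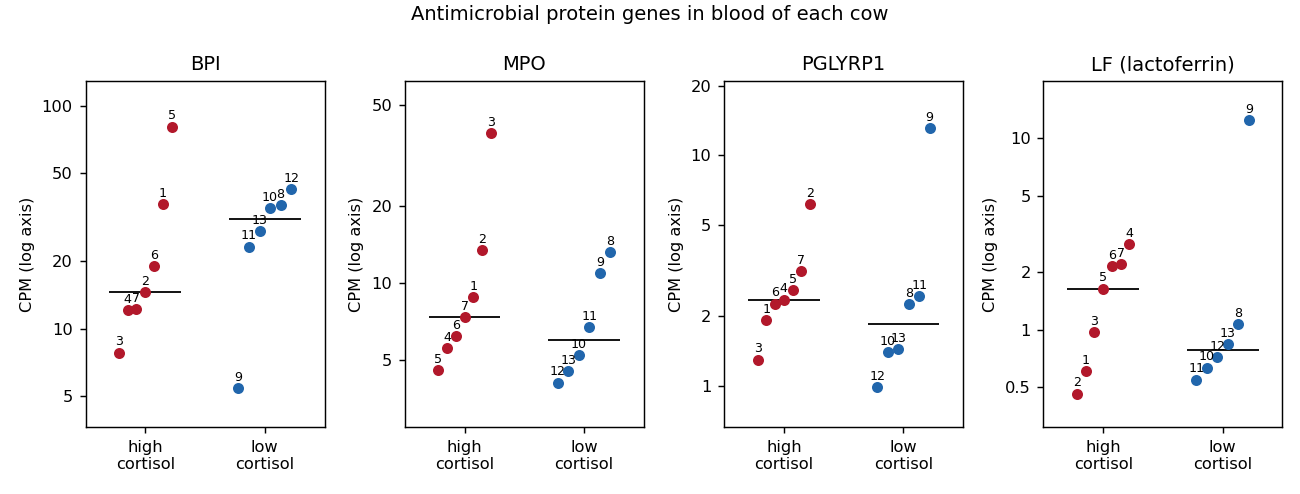
CPM of the 4 antimicrobial protein genes with counts (log axis) in each cow of the high (red) and low (blue) cortisol groups. Points are cows, labelled by replicate number, and black lines are group medians; 1 cow stands far above the rest in each panel, high 5 for *BPI* (80.5 CPM), high 3 for *MPO* (38.9 CPM) and low 9 for *PGLYRP1* (13.1 CPM) and *LF* (12.5 CPM).

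High and low groups were compared for each gene with the edgeR quasi-likelihood test over 11033 genes. Of the 4 antimicrobial genes tested, 0 passed after adjustment (each adjusted p was 0.998), and at an unadjusted p of 0.05 the number was again 0. The background was 0% of all genes called at an adjusted p of 0.05, and 2.09% (231 genes) at an unadjusted p below 0.05. With DESeq2 348 of 14377 genes were at an unadjusted p below 0.05. Its only call, *CYP4X1*, is no antimicrobial gene and is named after its values were seen. Its counts came from high 2 and high 4 alone, and the filter had removed it from the edgeR fit. limma-voom called 0 genes, with 218 at an unadjusted p below 0.05.

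All adjusted p-values being 0.998, the edgeR log2 fold change of *BPI* (high over low) was -0.10 with an SE of 0.52 (edgeR unadjusted p = 0.848). For *MPO* it was 0.68 with an SE of 0.47 (edgeR unadjusted p = 0.169). *PGLYRP1* had -0.33 with an SE of 0.54 (edgeR unadjusted p = 0.545), and *LF* -0.77 with an SE of 0.72 (edgeR unadjusted p = 0.30). With SEs of 0.47 to 0.72, these results do not show that the levels of the groups were alike. Exact permutation tests (two-sided, every split into 7 and 6 cows) of the mean log2 CPM gave p = 0.629 for *BPI*, 0.434 for *MPO*, 0.833 for *PGLYRP1* and 0.914 for *LF*.

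For *PGLYRP1* and *LF* the direction depended on the scale. The fitted fold change, which follows the counts, was negative for both, whereas the mean of log2 CPM was higher in the high group, by 0.13 and 0.09. It also depended on low 9: without that cow the log2 fold change was 0.70 for *PGLYRP1* and 1.01 for *LF*, and the unadjusted edgeR p of *LF* was 0.035. *BPI* moved to -0.72 without high 5 and to 0.052 without high 3, and *MPO* to 0.03 without high 3. With the haemoglobin share of each cow as a covariate, *LF* moved to -1.84. No gene of the 4 passed the adjusted threshold in any of these fits.

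**Figure D2:**
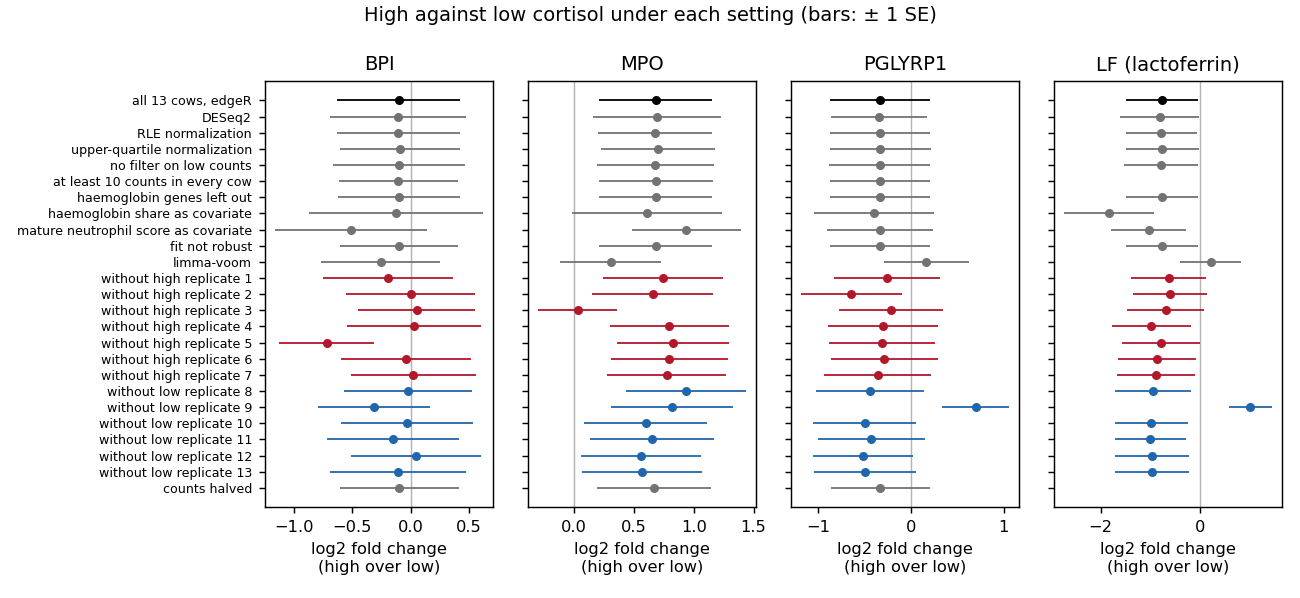
Log2 fold change of high over low cortisol (x axis, bars ± 1 SE) for the 4 genes under each processing setting (y axis), with fits that leave out a high cow in red and a low cow in blue. *PGLYRP1* and *LF* cross 0 when low 9 is left out (0.70 and 1.01), and *MPO* falls to 0.03 without high 3; *LF* has no value where a stricter filter or halved counts removed it.

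Per kilobase of exon, the median level over the 13 cows was 14.0 RPKM (CPM per kilobase) for *BPI*, 3.30 for *PGLYRP1*, 2.94 for *MPO* and 0.397 for *LF*, beside a median of 3.98 over all named genes. *BPI* lay above *PGLYRP1* in 11 of 13 cows, with high 2 and low 9 the other way. *PGLYRP1* lay above *MPO* in 8 of 13, and whether these neighbours in the order differ was not tested. *MPO* lay above *LF* in 12 of 13, with low 9 the exception. In low 9 the usual order was turned, since *BPI* was there 3.24 RPKM and *PGLYRP1* 19.0 RPKM.

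The 4 genes varied far more between cows than most genes did. The SD of log2 CPM over the 13 cows was 1.08 for *BPI*, 0.889 for *MPO*, 0.950 for *PGLYRP1* and 1.22 for *LF*, against a median of 0.305 over the 11033 genes tested. These values stood at the 98.7th, 97.0th, 97.7th and 99.3rd percentile. The highest cow exceeded the lowest 14.9 times for *BPI*, 9.58 times for *MPO*, 13.2 times for *PGLYRP1* and 26.9 times for *LF*. Genes of low counts vary more through counting alone, and how much of the spread of *LF* and *PGLYRP1* (11 to 174 counts) this makes up was not tested.

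The messages of these proteins were next compared with each other across cows. At an adjusted p of 0.05 there were 0 of the 6 pairs, and at an unadjusted p of 0.05 there were 2 (permutation tests of log2 CPM over 13 cows, 100000 resamples). *PGLYRP1* and *LF* had r = 0.62 (permutation p = 0.035, adjusted 0.094) but rho = 0.31 (permutation p = 0.298, adjusted 0.358). Leaving out high 2 and low 9, the cows farthest from the median of *PGLYRP1*, gave r = 0.58, whereas leaving out low 9 alone gave r = 0.08. Within the high group r was -0.24 and within the low group 0.92 (exact permutation p = 0.620 and 0.076). The coefficient thus depended on which of these cows were kept.

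*BPI* and *MPO* had a negative coefficient, r = -0.57 (permutation p = 0.040, adjusted 0.094) and rho = -0.53 (permutation p = 0.063, adjusted 0.358). Without high 5 and low 9 r was -0.56. Within the high group r was -0.61 and within the low group -0.49 (exact permutation p = 0.157 and 0.368). *BPI* also had negative coefficients with *PGLYRP1* (r = -0.53) and *LF* (r = -0.54), each with an adjusted permutation p of 0.094, and these were -0.22 and -0.22 without low 9. *MPO* had r = 0.21 with *PGLYRP1* and 0.01 with *LF* (adjusted permutation p = 0.558 and 0.959).

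The same genes were set against scores of 13 gene lists, each score being the mean centred log2 CPM of the tested genes of a list, which gave 52 relations. By Pearson's r, 9 had an unadjusted permutation p below 0.05 and 2 an adjusted p below 0.05, both of them with *MPO*. By Spearman's rho these numbers were 7 and 1.

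*MPO* followed the markers of eosinophils, another granulocyte. With the score of *CCR3* (the eotaxin receptor), *IL5RA* (the interleukin 5 receptor chain) and *ALOX15* (15-lipoxygenase) it had r = 0.94 (permutation p = 1e-05, the smallest the resamples can give, adjusted 5.2e-04) and rho = 0.91 (adjusted permutation p = 0.0021). Without high 2 and high 3, the cows farthest from the median score, r was 0.85. It was 0.97 within the high group and 0.89 within the low group (exact permutation p = 0.0024 and 0.029). High 3, the cow highest in *MPO*, was also the highest in *CCR3* (300 CPM), *IL5RA* (47.0 CPM) and *ALOX15* (802 CPM). The last of the measured markers, *PRG3*, an eosinophil granule protein, was below the filter, with at most 2.95 CPM, in high 7 and not in high 3; *EPX*, *PRG2*, *SIGLEC8* and *CLC* were not analysed here.

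Against the 14 mature neutrophil markers, *MPO* had r = 0.27 and rho = 0.25 (adjusted permutation p = 0.621 and 0.616). With the granule lists of neutrophils its coefficients were higher. They were r = 0.63 and rho = 0.68 for primary granules (adjusted permutation p = 0.167 and 0.162) and r = 0.55 and rho = 0.60 for secondary and tertiary granules (adjusted permutation p = 0.278 and 0.286). The differences between these coefficients were not tested. The granule lists share *LYZ*, and their genes differed in r with *MPO*. In the primary list r ran from -0.09 for *PRSS57* to 0.54 for *CD63*. In the secondary and tertiary list it ran from -0.31 for *LCN2* to 0.83 for *ADAM8*. A ratio was also taken, a measure chosen after the values were seen. Per 1000 CPM of the summed eosinophil markers *MPO* was 14.1 to 33.8 CPM, a 2.40-fold range. Per 1000 CPM of the summed neutrophil markers it was 0.380 to 4.34 CPM, an 11.4-fold range. The neutrophil sum itself ran only from 6319 to 12936 CPM, so the latter ratio stays near the 9.58-fold range of *MPO* alone. The ratios therefore restate the coefficients above, and which cells gave the *MPO* message was not tested. *LPO*, a related peroxidase gene, did not exceed 0.601 CPM. How reads of related peroxidase genes were divided was not tested.

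**Figure D3:**
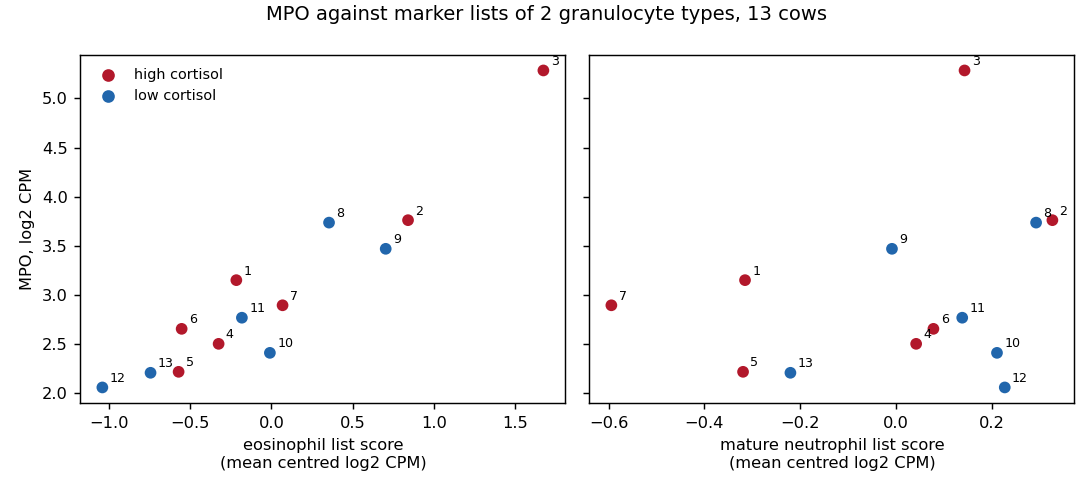
*MPO* (y axis, log2 CPM) against the score of the eosinophil list (left) and of the mature neutrophil list (right; x axes, mean centred log2 CPM), 1 labelled point per cow, high cortisol in red and low cortisol in blue. *MPO* climbs with the eosinophil score in both groups (r = 0.94), with high 3 at the top, and scatters against the neutrophil score (r = 0.27).

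*MPO* also followed the list of granulocyte transcription factors, with r = 0.76 (permutation p = 0.0015, adjusted 0.038) and rho = 0.76 (adjusted permutation p = 0.104). Without high 2 and low 12 r was 0.71, and it was 0.69 within the high and 0.89 within the low group (exact permutation p = 0.057 and 0.019). *CEBPE*, which drives the late maturation of granulocytes, had its highest value of 60.7 CPM in high 3, and correlated with *MPO* at r = 0.86. The other 6 factors of the list had lower coefficients with *MPO*, from -0.32 for *GFI1* and 0.20 for *IRF8* to 0.51 for *KLF5*. *ELANE*, neutrophil elastase, which is packed into the same primary granules as *MPO*, correlated with it at r = 0.46, the 614th highest of the 11032 other genes. These coefficients with single genes are descriptive.

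With the mature neutrophil list *BPI* had r = -0.07 and rho = 0.02 (adjusted permutation p = 0.925 and 0.988). Its coefficients with the granulocyte transcription factors (r = -0.68) and the eosinophil list (r = -0.65) were negative, each with an adjusted permutation p of 0.129. *PGLYRP1* had its highest coefficient with the secondary and tertiary granule list (r = 0.68, adjusted permutation p = 0.129, rho = 0.36), and it was 0.11 without high 2 and low 9. *LF*, itself a protein of secondary granules, had r = 0.37 with that list and 0.53 with the platelet list (adjusted permutation p = 0.573 and 0.315). Without low 9 these coefficients of *LF* were -0.13 and 0.18.

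**Figure D4:**
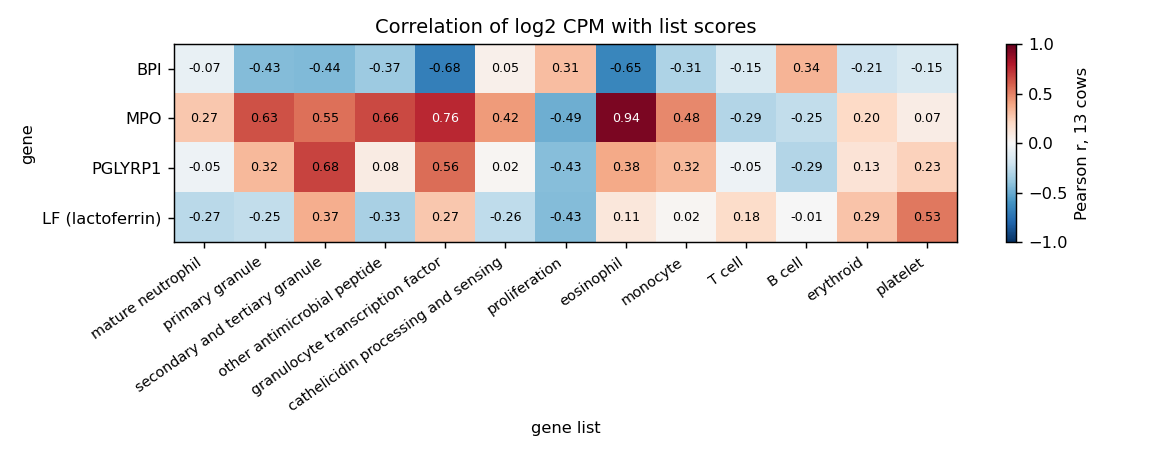
Pearson r (colour and printed value, red positive and blue negative) of log2 CPM of each antimicrobial gene (rows) with the score of each gene list (columns) over the 13 cows. *MPO* has the highest values, 0.94 with the eosinophil and 0.76 with the granulocyte transcription factor list, and *BPI* has the opposite sign for both.

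Each gene had its own company among all genes, and each set is given as the 5 highest r over 13 cows, chosen for being highest and so without a test. For *BPI* these were *ADRB3* (0.88), a beta-adrenergic receptor, *ACVRL1* (0.87), a receptor kinase of the TGF-beta family, *LAMTOR2* (0.87), *FOXS1* (0.85) and *STOML1* (0.85). All 5 were highest in high 5, against 10.7% of all genes tested, but choosing genes by r favours those that share the highest cow. Without that cow r was between 0.79 and 0.83. For *MPO* they were *SV2B* (0.93), *ADORA3* (0.93), the adenosine A3 receptor, *CCR3* (0.93), *IL5RA* (0.91) and *COPG2* (0.91), a subunit of the coatomer. All 5 were highest in high 3, against 4.56% of all genes tested and with the same limit, and r was 0.81 to 0.86 without that cow.

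For *PGLYRP1* they included *C7orf25* (0.81), *SELENBP1* (0.76), *MEMO1* (0.75) and *C19orf12* (0.75), and without low 9 r ran from 0.48 (*MEMO1*) to 0.76 (*C19orf12*). For *LF* they were *FBN1* (0.92), which encodes fibrillin of the extracellular matrix, *GZF1* (0.84), *MTMR1* (0.79), *LIX1L* (0.79) and *POLR2D* (0.79). *FBN1* reached 7.59 CPM in low 9 against a median of 0.645 CPM, and its r with *LF* was 0.79 without that cow. No gene named here was shared by any of these sets.

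Low 9 also stood apart in some of the gene lists. It had the highest score of the 13 cows for the secondary and tertiary granule list (0.54) and for the platelet list (1.06), but was in place 9 for the mature neutrophil list (-0.01). Of the 12 secondary and tertiary granule genes with counts it was highest in 3: *OLFM4* (22 CPM), *CD177* (1.35 CPM) and *MMP8* (0.901 CPM), the neutrophil collagenase. *CD177* and *MMP8* were below the filter, with at most 18 and 12 counts, and do not enter the score. Over all genes tested low 9 was highest in 3.88%, and of the 10 secondary and tertiary granule genes tested only in *OLFM4*. Of the 5 platelet genes, all of them tested, it was highest in 3. *MYB*, a transcription factor of blood progenitors, was also highest there, at 19.3 CPM. Low 9 was highest in 0 of 7 primary granule genes, of which *PRTN3* and *AZU1* were below the filter, and in 0 of 12 proliferation genes. Beside a share of 3.88%, these counts are too small to set the lists apart. High 5, highest in *BPI*, was first of the 13 cows for the B cell score (0.58), second for the erythroid score (1.29) and in place 12 for the mature neutrophil score (-0.32). The part of these differences in the values of *BPI*, *PGLYRP1* and *LF* was not tested.

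The lists around these genes were compared between the groups in the same fit, where 0 genes of any list passed the adjusted threshold and the median log2 fold change over all genes was 0.01. Of all genes tested 53.3% were higher and 46.7% lower in the high group, and 2.09% had an unadjusted p below 0.05, against which the counts of the lists stand. Of the 14 mature neutrophil genes 10 were lower in the high group, with a median of -0.18, and 2 of these passed at an unadjusted p of 0.05. These were *CSF3R*, 3023 ± 858 against 4122 ± 1093 CPM (SD; log2 fold change -0.45, edgeR unadjusted p = 0.032, adjusted p = 0.998), and *S100A9*, a subunit of calprotectin, 1580 ± 423 against 2137 ± 365 CPM (SD; -0.44, edgeR unadjusted p = 0.017, adjusted p = 0.998). *S100A8*, the other subunit of calprotectin, went the other way, 207 ± 214 against 152 ± 53.8 CPM (SD, log2 fold change 0.45, edgeR unadjusted p = 0.338, adjusted p = 0.998). *S100A12* averaged 998 ± 768 CPM (SD) in the high group and 838 ± 230 CPM (SD) in the low group. Both genes were highest in high 4, at 682 and 2661 CPM.

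The primary granule list had 5 genes tested, 4 higher in the high group and 0 with an unadjusted p below 0.05, with a median of 0.05. *LYZ*, lysozyme, averaged 4468 and 3663 CPM in the high and low groups and *ELANE* 8.10 and 7.81 CPM. *PRTN3* and *AZU1*, proteinase 3 and azurocidin, did not exceed 0.26 and 0.57 CPM. Of the 10 secondary and tertiary granule genes tested 7 were lower in the high group, with a median of -0.14, and 1 had an unadjusted p below 0.05. That was *TCN1*, the vitamin B12 binder of secondary granules, with 248 ± 76.7 against 400 ± 82.6 CPM (SD; -0.69, edgeR unadjusted p = 0.0021, adjusted p = 0.998). *LCN2*, the siderophore-binding lipocalin, was at 33.7 and 49.0 CPM (edgeR unadjusted p = 0.083) and *CHI3L1* at 368 and 475 CPM (edgeR unadjusted p = 0.061).

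Other antimicrobial genes were 4 tested, 2 in each direction, with 0 at an unadjusted p below 0.05 and a median of 0.08. They were the ribonucleases *RNASE6* (445 and 369 CPM in the high and low groups) and *RNASE4* (115 and 135 CPM), the amidase *PGLYRP2* (10.1 and 11.0 CPM) and the beta-defensin *DEFB7* (2.85 and 2.16 CPM). For the granulocyte transcription factors 5 of 7 were higher (median 0.14), again with 0 at an unadjusted p below 0.05. For a list drawn up around cathelicidin processing and sensing it was 4 of 8 (median 0.02), likewise with 0. That list also holds genes of other roles, among them *VDR*, the vitamin D receptor (4.04 and 5.32 CPM, edgeR unadjusted p = 0.089), and *TLR4* (147 and 187 CPM, edgeR unadjusted p = 0.099).

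Markers of other blood cells are given beside these, and 0 of them passed the adjusted threshold. All 6 erythroid genes tested were higher in the high group, 5 of them with an unadjusted p below 0.05 (*HBB*, *HBG*, *HBM*, *ALAS2* and *CA2*), with a median of 1.94, and the list summed to 388 to 8013 CPM in the high group and 143 to 581 CPM in the low group. All 12 proliferation genes were lower in the high group, *MKI67* and *BUB1* with an unadjusted p below 0.05 (median -0.38; sums 323 to 551 and 336 to 778 CPM). The 3 eosinophil genes tested were higher in the high group (median 0.42), with 0 at an unadjusted p below 0.05 and sums of 220 to 1151 and 173 to 529 CPM. B cell genes were higher in 7 of 7 (median 0.14), *CR2* with an unadjusted p below 0.05, monocyte genes in 5 of 7 (median 0.19), T cell genes in 3 of 9 (median -0.07) and platelet genes in 0 of 5 (median -0.28). What part these shares of cells had in the comparison of the antimicrobial genes was not tested.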

How the data were processed

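The authors deposited raw counts per gene name, as whole numbers without normalization. Per the file headers, exons were counted with featureCounts on UMD3.1 gene models of Ensembl, and the submitters' processing notes name STAR, featureCounts and ARS-UCD1.2; positions given are those of the headers, and none was converted. The headers show no option for strand, read pairs or multiple hits. They also name goat in a folder and animal numbers other than those of the tables, while the labels give cattle; the match was not tested. Of the genes with 1 to 20 counts in a library, 69.6 to 74.2% had an even count; halved counts were therefore tried, for the case that both mates of a read pair were counted. The unnamed entry was left out.

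After TMM normalization, CPM were taken from the counts, and log2 CPM with a prior count of 2. Groups, from the labels, were compared with edgeR 4.0.16 (quasi-likelihood, robust) under R 4.3.3, with no covariate and with Benjamini-Hochberg adjustment. Genes had to pass filterByExpr (at least 10 counts in enough cows, 15 in total). The p-values measure the spread between cows. The test was tried on simulated counts. The SE of a log2 fold change is its ratio to the root of F. Correlations used 100000 permutations over 13 cows and exact permutations within groups.

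Alternatives were DESeq2 1.42.0, limma-voom (limma 3.58.1), other normalizations and filters, haemoglobin left out or as a covariate, the mature neutrophil score as a covariate, and each cow left out; the halved counts were added after seeing the data. Genes and lists were chosen with earlier results of these data known. Genes named are the antimicrobial genes, the 5 genes most correlated with each, and of each list the most abundant ones or those at an unadjusted p below 0.05. In some places *CEBPE*, *OLFM4*, *CD177*, *MMP8*, *MYB*, *PRTN3*, *AZU1*, *ELANE*, *PRSS57*, *CD63*, *LCN2*, *ADAM8*, *S100A8*, *GFI1*, *IRF8*, *KLF5*, *VDR*, *TLR4*, *LPO* and *PRG3* were named after their values were seen. Some items under this rule are not reported here. No sequence is printed.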

Additional observations from a re-analysis of the deposited data

Results flagged for a closer look

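In 5 of the 8 groups examined (4 genes, high and low cows), the highest cow was separated from the next by more than Dixon's 95% limit, which chance passes in about 1 of 20 groups of normally spread values. CPM are skewed, and on log2 CPM, a scale added after seeing the data, 3 of the 8 groups passed it, all through low 9 (*PGLYRP1* and *LF* as the highest and *BPI* as the lowest low cow). *BPI* in high 5 was 80.5 CPM, and the next high cow was at 36.2 CPM. *MPO* in high 3 was 38.9 CPM, and the next high cow was at 13.4 CPM. *PGLYRP1* in high 2 was 6.14 CPM, and the next high cow was at 3.13 CPM. In low 9 *PGLYRP1* was 13.1 CPM and *LF* 12.5 CPM, against at most 2.45 and 1.07 CPM in the other low cows. No test of a cause was made.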

How the results depend on the processing

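DESeq2 called 1 gene, which the filter had kept out of the edgeR fit, where edgeR called 0, and it gave *PGLYRP1* no p. limma-voom turned the log2 fold change of *PGLYRP1* to 0.17 and of *LF* to 0.21. Leaving out 1 cow at a time, the log2 fold change ran from -0.72 to 0.052 for *BPI*, from 0.03 to 0.94 for *MPO*, from -0.64 to 0.70 for *PGLYRP1* and from -0.999 to 1.01 for *LF*, and the genes called over the whole table stayed at 0. *BPI* was positive without high 3, high 4, high 7 or low 12. The antimicrobial genes at an unadjusted p below 0.05 numbered 0 to 1 (*LF* without low 9), and the pairs of them correlated at an adjusted p below 0.05 numbered 0 to 2, with 1 without high 2 and 2 without high 3. The mature neutrophil score as a covariate gave -0.51 for *BPI* and 0.94 for *MPO*. The genes at an unadjusted p below 0.05 over the whole table, 231, were 120 with the haemoglobin covariate, 414 without a filter, 348 by DESeq2, 373 without high 2 and 363 without high 5. The cause of these shifts was not tested. *LF* was not tested with at least 10 counts in every cow or with halved counts. No paired analysis was made, because the high group (1 to 7) and the low group (8 to 13) are different cows and the labels give no pairs. Low counts limit *LF* and *PGLYRP1*, and 13 of the study's cows were used.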
